A study of Mus musculus with 10 samples.

Results

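The genes described here encode 10 proteins grouped as positive acute phase reactants, plasma and tissue proteins whose output in most cases rises with inflammation. Included are Lcn2, serum amyloid A genes Saa1, Saa2, Saa3 and Saa4, orosomucoid genes Orm1 and Orm2, haptoglobin (Hp), hemopexin (Hpx) and C-reactive protein (Crp). They were taken by name from the array annotation, with the brightest probe set standing for a gene. Of the 10, 8 had a probe set annotated to that gene alone, among 14860 genes with such a probe set and 23332 probe sets in all. Saa1 and Saa2 had none, because both of their probe sets carry both symbols, and these 2 shared probe sets are given beside the 8 genes without being assigned to either gene. The livers came from male Balb/c mice obtained at 8 weeks of age. The 5 fibrotic livers were from mice given repeated injections of carbon tetrachloride (CCl4), a hepatotoxin, for 6 weeks, and the 5 control livers were from mice given oil for 6 weeks, with no genetic alteration in either group. The arrays measured total RNA of whole liver, in which a change in the share of a cell type and a change in RNA per cell cannot be told apart. Values are log2 expression, so that a difference of 1 is a doubling.

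The acute phase response is a change in the proteins that the liver secretes, driven mainly by interleukin-6 and interleukin-1 through STAT3, C/EBP and NF-κB factors in hepatocytes. Serum amyloid A proteins travel with high-density lipoprotein, orosomucoids bind small molecules, haptoglobin binds free hemoglobin, hemopexin binds free heme, and lipocalin-2, the product of Lcn2, binds bacterial iron carriers. Which reactants respond strongly differs between species. C-reactive protein is a major reactant in humans and a minor one in mice, and Saa3 is made in mice by macrophages and other cells as well as by hepatocytes.

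Saa3, Saa4, Saa1 and Saa2 follow one another along mouse chromosome 7 in the RefSeq order of protein-coding genes, and Orm1, Orm3 and Orm2 follow one another on chromosome 4. Promoter windows of 300 bases, from 250 before to 50 after the transcription start, were held by RefSeq (GRCm38.p6) for 8 of the 10 genes, not for Orm1 and Hp. The windows of the 3 single-gene members with the largest differences are shown with that of Saa4, the neighbour of Saa3 whose level differed least from oil livers, so that the changes below can be read beside them. Capitals mark matches to TTNNGNAA, a short C/EBP motif, or to TATAAA. Lcn2 lies at chr2:32387690-32387989 (minus strand), Saa3 at chr7:46715627-46715926 (minus strand), Orm2 at chr4:63362199-63362498 (plus strand) and Saa4 at chr7:46732554-46732853 (minus strand).
Lcn2: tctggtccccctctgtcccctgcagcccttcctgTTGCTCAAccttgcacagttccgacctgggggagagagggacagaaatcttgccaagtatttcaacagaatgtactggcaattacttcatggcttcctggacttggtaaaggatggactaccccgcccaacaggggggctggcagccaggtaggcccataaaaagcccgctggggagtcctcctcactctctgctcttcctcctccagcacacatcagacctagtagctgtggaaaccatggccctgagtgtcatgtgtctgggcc
Saa3: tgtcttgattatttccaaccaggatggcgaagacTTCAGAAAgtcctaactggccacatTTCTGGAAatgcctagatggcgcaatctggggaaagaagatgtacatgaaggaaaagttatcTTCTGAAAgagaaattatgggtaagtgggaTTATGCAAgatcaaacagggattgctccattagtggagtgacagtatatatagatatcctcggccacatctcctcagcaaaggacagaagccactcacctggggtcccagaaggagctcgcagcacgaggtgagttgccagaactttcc
Orm2: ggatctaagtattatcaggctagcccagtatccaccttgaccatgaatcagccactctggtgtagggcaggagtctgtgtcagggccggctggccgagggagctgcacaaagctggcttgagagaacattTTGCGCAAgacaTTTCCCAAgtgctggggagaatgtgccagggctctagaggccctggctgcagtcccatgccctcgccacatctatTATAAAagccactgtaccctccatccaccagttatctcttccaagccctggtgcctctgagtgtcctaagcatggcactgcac
Saa4: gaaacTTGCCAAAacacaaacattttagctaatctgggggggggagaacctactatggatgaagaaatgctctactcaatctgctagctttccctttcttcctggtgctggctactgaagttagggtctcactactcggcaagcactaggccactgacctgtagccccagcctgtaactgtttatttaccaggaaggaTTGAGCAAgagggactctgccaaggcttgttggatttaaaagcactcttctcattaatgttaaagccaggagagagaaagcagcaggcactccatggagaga

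All 8 windows held at least 1 match to TTNNGNAA on either strand, where 40.7% of 32817 windows of that length do. Saa3 held 4 such matches, at -216, -191, -129 and -99 from the start, Orm2 held 2, at -120 and -108, and Lcn2 held 1, at -216. Saa4 also held 2, at -245 and -52. Any relation of these matches to the expression changes was not tested. TATAAA was found in Orm2, at -33, and in Crp, at -31, and in 13.6% of all windows. Matches to TTCNNNGAA, a STAT motif, to CTGGGAA, the interleukin-6 response element, and to the NF-κB consensus were found in 0 of the 8 windows, against 8.29%, 11.1% and 8.46% of all windows. No 2 matches overlapped. The windows of Saa1 and Saa2 were 96.0% identical over 299 aligned bases, so they are not separate examples.

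In livers treated with CCl4, Lcn2 and Saa3 rose strongly, Orm2 and the shared Saa1/Saa2 probe sets lay higher in every liver without passing the test, Hp and Hpx differed by less than a doubling, and Orm1, Saa4 and Crp differed by 0.12 or less on the log2 scale. By limma, with p values adjusted after Benjamini and Hochberg across every probe set on the array, 2 of 8 genes were higher at an adjusted p under 0.05, where 0.63% of all probe sets were, and 0 were lower, where 0.09% were. Before adjustment, 5 of 8 were higher at a p under 0.05, where 7.03% of all probe sets were. With the looser cutoffs named in the methods (fold above 1.6 and p under 0.05 before adjustment), Lcn2, Saa3 and Orm2 were higher, 3 of 8 against 2.56% of all probe sets. All 5 CCl4 livers lay above all 5 oil livers for 4 of 8 genes, Lcn2, Saa3, Orm2 and Hp, against 2.73% of all probe sets. The median log2 fold change was 0.45 over the 8 genes and 0.008 over all probe sets. The plot of expression in each liver shows the 8 genes and the 2 shared probe sets.

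**Figure D1:**
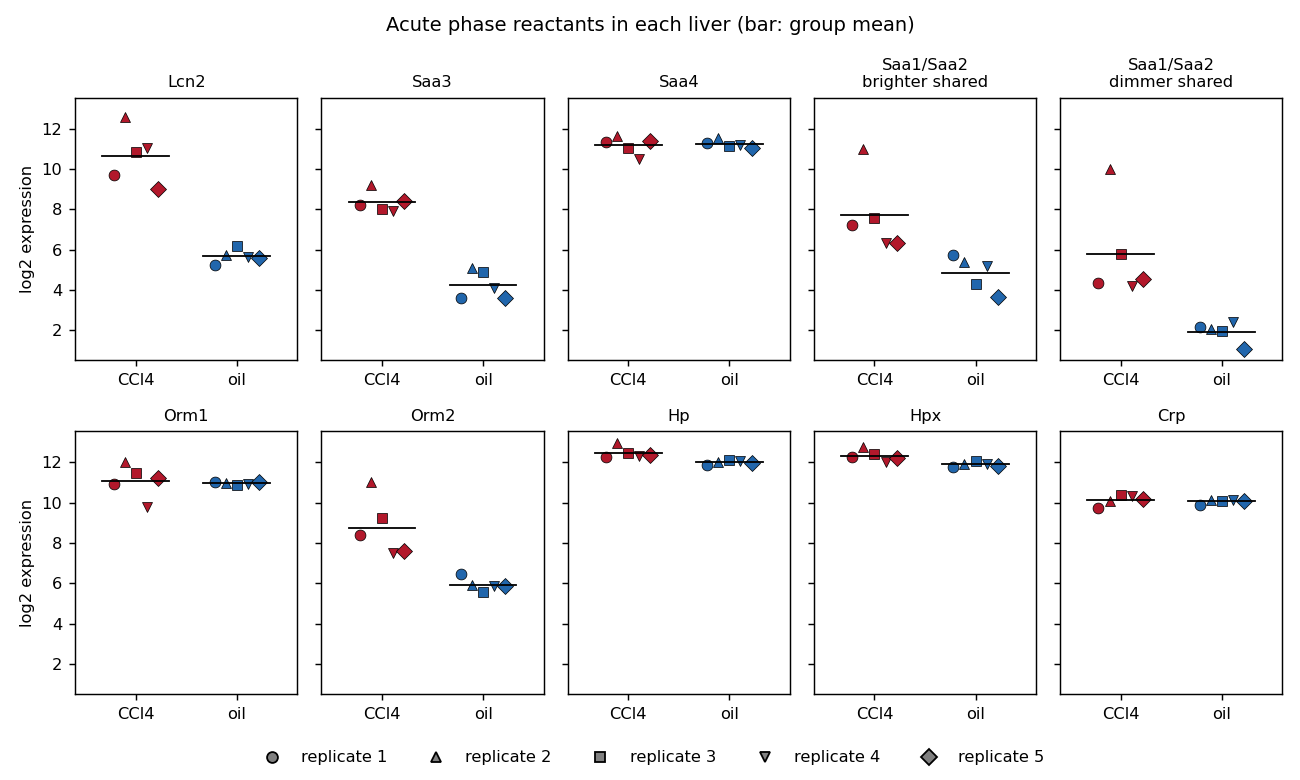
Log2 expression (vertical axis) of each acute phase probe set in the 5 CCl4 livers (red, left) and the 5 oil livers (blue, right), with a bar at the group mean and 1 symbol for each replicate number. The groups do not overlap for Lcn2, Saa3, Orm2, Hp and the 2 shared Saa1/Saa2 probe sets, and CCl4 replicate 2 is the highest CCl4 liver for every probe set shown except Crp.

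Lcn2 encodes lipocalin-2, which withholds iron from bacteria and is made by injured hepatocytes, by macrophages and in neutrophil granules. It measured 9.70, 12.57, 10.83, 11.06 and 9.0 in CCl4 replicates 1 to 5, against 5.25, 5.76, 6.18, 5.63 and 5.61 in oil replicates 1 to 5. Every CCl4 liver lay well above every oil liver, yet the CCl4 livers were spread over 3.57 and the oil livers over 0.93. The log2 fold change was 4.95 ± 0.56 (SE), a 30.87-fold difference, with a 95% confidence interval from 3.71 to 6.18 and a limma adjusted p of 0.00596. Against the mean of the oil livers, the increase ran from 9.97-fold in CCl4 replicate 5 to 117.97-fold in CCl4 replicate 2. With any 1 array left out the fold change lay between 4.46 and 5.36 and passed the test each time. With the Student's t statistic that the methods name, the adjusted p was 0.0543.

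Saa3 encodes an inducible serum amyloid A that is not confined to hepatocytes in mice. It measured 8.23, 9.22, 8.03, 7.92 and 8.40 in CCl4 livers, against 3.63, 5.10, 4.91, 4.09 and 3.60 in oil livers. Unlike Lcn2, its CCl4 livers lay close together, over a range of 1.3 against 1.5 in oil livers, and it was the 1 gene of the 8 whose SD was not larger in CCl4 livers (0.51 against 0.71). The log2 fold change was 4.09 ± 0.35 (SE), with a 95% confidence interval from 3.32 to 4.87 and a limma adjusted p of 0.00134. It passed under all 18 alternatives, with fold changes from 3.88 to 4.30.

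Saa1 and Saa2 encode the serum amyloid A proteins that the mouse liver releases in bulk during inflammation. The brighter shared probe set measured 7.25, 10.99, 7.59, 6.36 and 6.36 in CCl4 livers, against 5.76, 5.41, 4.30, 5.21 and 3.67 in oil livers. The dimmer one measured 4.34, 10.01, 5.79, 4.22 and 4.57 in CCl4 livers, against 2.16, 2.06, 1.95, 2.41 and 1.10 in oil livers, where 37.0% of all probe sets were dimmer. In both, the groups did not overlap, and CCl4 replicate 2 stood far above the other CCl4 livers. The fold changes were 2.84 ± 0.83 and 3.85 ± 0.98 (SE), with limma adjusted p of 0.176 and 0.121. Without CCl4 replicate 2 the brighter was 2.02 higher and the dimmer 2.79 higher, the second then with a limma adjusted p of 0.0126. That was the 1 setting of 18 alternatives in which the dimmer passed, whereas the brighter passed in 0.

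Saa4 encodes a serum amyloid A that is made constitutively and is present in plasma without inflammation. It measured 11.36, 11.64, 11.04, 10.50 and 11.40 in CCl4 livers, against 11.29, 11.52, 11.15, 11.20 and 11.07 in oil livers. The groups overlapped, and CCl4 replicate 4 was the lowest of the 10 livers. The log2 fold change was -0.06 ± 0.20 (SE), with a 95% confidence interval from -0.49 to 0.37 and a limma adjusted p of 0.959. Its sign was positive without CCl4 replicate 4 (0.11), without oil replicate 2 (0.01) and with array quality weights (0.04).

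Orm1 and Orm2 encode orosomucoids, also called alpha-1-acid glycoproteins. Orm1 measured 10.94, 12.03, 11.46, 9.76 and 11.23 in CCl4 livers, against 11.02, 10.99, 10.89, 10.92 and 11.01 in oil livers. The oil livers lay within 0.13 of one another, whereas the CCl4 livers spread over 2.27, on both sides of them. The group means differed by 0.12 ± 0.34 (SE, 95% confidence interval -0.63 to 0.86, limma adjusted p = 0.952), and by -0.12 without CCl4 replicate 2.

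Orm2 measured 8.37, 11.04, 9.22, 7.48 and 7.60 in CCl4 livers, against 6.48, 5.90, 5.57, 5.85 and 5.86 in oil livers. Every CCl4 liver was above every oil liver, with CCl4 replicate 2 at 34.46 times and CCl4 replicate 4 at 2.92 times the oil mean. The log2 fold change was 2.81 ± 0.59 (SE), with a 95% confidence interval from 1.5 to 4.12 and a limma adjusted p of 0.0696. It passed the test when CCl4 replicate 2, its highest liver, was left out (2.23, adjusted p = 0.029) and when CCl4 replicate 5 was (3.09, adjusted p = 0.0451).

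Hp and Hpx encode the scavengers of free hemoglobin and free heme. Hp measured 12.26, 12.94, 12.48, 12.29 and 12.38 in CCl4 livers, against 11.85, 12.02, 12.09, 12.07 and 11.97 in oil livers. Hpx measured 12.25, 12.74, 12.41, 12.03 and 12.23 in CCl4 livers, against 11.78, 11.90, 12.07, 11.91 and 11.83 in oil livers. The groups did not overlap for Hp, and for Hpx only CCl4 replicate 4 fell within the range of the oil livers. Hp was 0.47 ± 0.13 higher (SE, 95% confidence interval 0.18 to 0.75, limma adjusted p = 0.15) and Hpx 0.43 ± 0.13 higher (SE, 95% confidence interval 0.15 to 0.71, limma adjusted p = 0.177). Both probe sets were brighter in oil livers than 99.8% of all probe sets, and the brightest value on any array was 13.4.

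Crp encodes C-reactive protein, which opsonizes damaged cells and microbes. It measured 9.72, 10.08, 10.39, 10.32 and 10.20 in CCl4 livers, against 9.90, 10.14, 10.10, 10.11 and 10.06 in oil livers. The groups overlapped, and CCl4 replicate 1 was the lowest of the 10. The log2 fold change was 0.08 ± 0.12 (SE), with a 95% confidence interval from -0.19 to 0.36 and a limma adjusted p of 0.885. The plot of fold changes with their intervals sets these genes side by side.

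**Figure D2:**
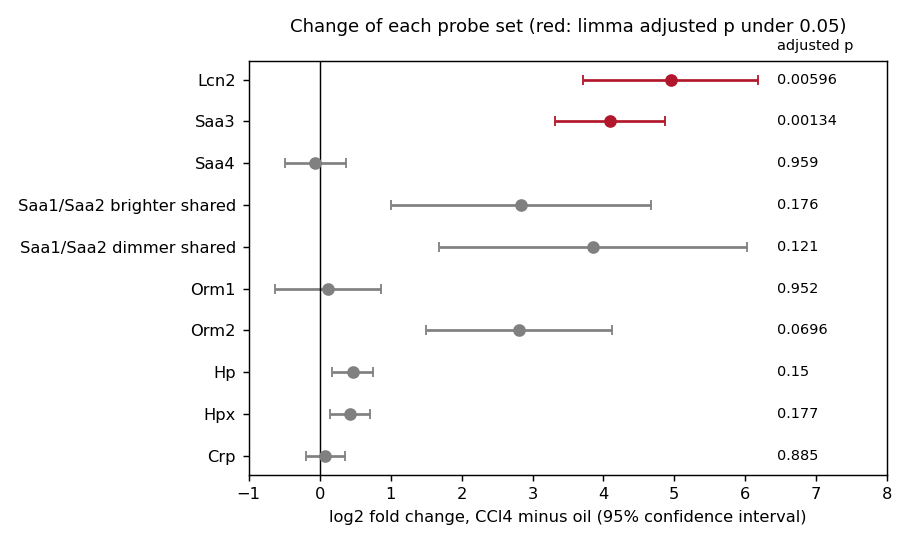
Log2 fold change of CCl4 over oil livers (horizontal axis) with its 95% confidence interval for each acute phase probe set (5 livers a group), with the limma adjusted p at the right and red for an adjusted p under 0.05. Lcn2 and Saa3 pass the test, whereas the intervals of Orm2, Hp, Hpx and the shared Saa1/Saa2 probe sets lie above 0 without passing after adjustment, and those of Saa4, Orm1 and Crp span 0.

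Paralogues within both families changed unequally. The difference between 2 log2 fold changes was tested by an exact permutation test over the 10 livers, two-sided, for 4 pairs with Benjamini-Hochberg adjustment over them. The fold change of Saa3 exceeded that of Saa4 by 4.15 ± 0.31 (SE, exact p = 0.00794, adjusted p = 0.0106), and that of Orm2 exceeded that of Orm1 by 2.69 ± 0.44 (SE, exact p = 0.00794, adjusted p = 0.0106). The brighter shared Saa1/Saa2 probe set exceeded Saa4 by 2.90 ± 0.82 (SE, exact p = 0.00794, adjusted p = 0.0106). In each of these 3 pairs all 5 CCl4 livers lay above all 5 oil livers, and this p is the smallest that 252 splits of the livers can give. Saa3 against the shared Saa1/Saa2 probe set gave a difference of 1.25 ± 0.81 (SE, 95% confidence interval -0.62 to 3.13, exact p = 0.167, adjusted p = 0.167). Without CCl4 replicate 2 that difference was 1.86 (exact permutation p = 0.0238). The pairs with the shared probe set were added after the annotation was seen. In oil livers Saa4 and Orm1 were brighter than 99.6% and 99.4% of all probe sets, and Saa3 and Orm2 than 68.7% and 82.3%. The part of this unlike brightness in the differences was not tested.

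The CCl4 livers differed from one another. CCl4 replicate 2 was the highest of the CCl4 livers for 7 of the 8 genes, all but Crp, and for both shared probe sets. Means of the neutrophil, macrophage and fibroblast markers described below were also largest in it, at 1.09, 2.76 and 2.60 above oil livers. The height of this liver was thus not particular to the acute phase genes. It exceeded the average of the remaining 4 CCl4 livers by 2.42 for Lcn2, 2.87 for Orm2, 1.07 for Saa3, 1.18 for Orm1, 0.56 for Saa4, 0.59 for Hp and 0.51 for Hpx. CCl4 replicate 4 was the lowest for 5 of 8, namely Saa3, Saa4, Orm1, Orm2 and Hpx, but the second highest for Lcn2. How often each array was highest or lowest over all probe sets was not counted. Array quality weights ranged from 0.4592 in CCl4 replicate 4 to 1.435 in oil replicate 3, and the weight of CCl4 replicate 2 was 0.9398. The SD was larger in CCl4 livers for 7 of 8 genes, and for 57.4% of all probe sets.

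**Figure D3:**
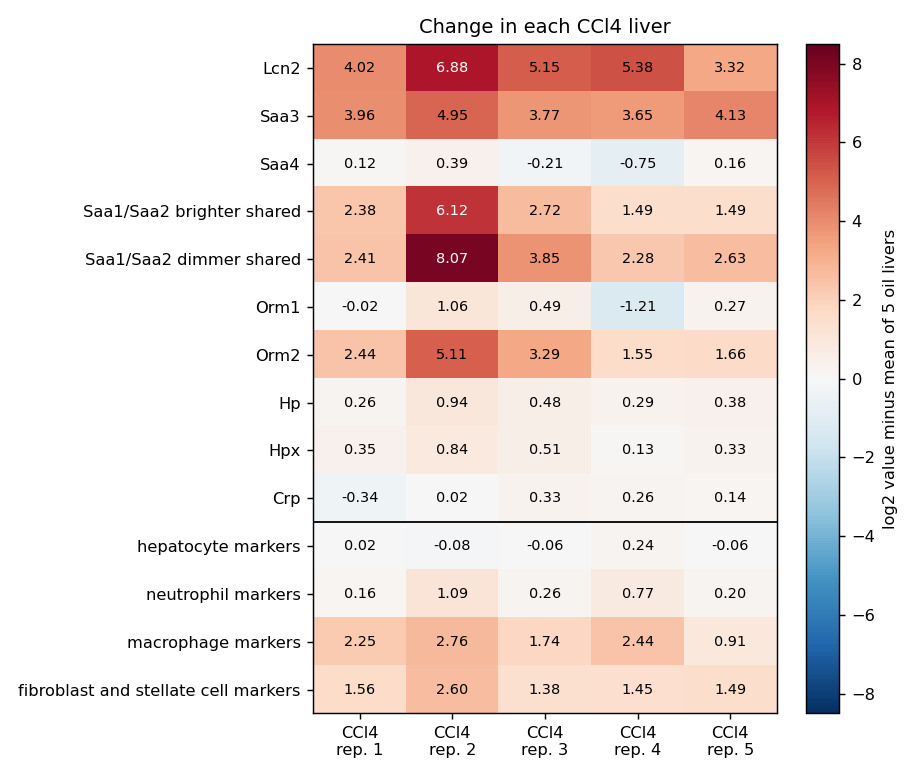
Log2 value of each CCl4 liver (columns, replicates 1 to 5) minus the mean of the 5 oil livers for each acute phase probe set (rows above the line) and for the mean of 4 marker lists (rows below), with red for higher and blue for lower. CCl4 replicate 2 has the largest value in every acute phase row except Crp, and in the neutrophil, macrophage and fibroblast rows.

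Among markers of other cell types, some macrophage and fibroblast genes passed the test, and 0 of the neutrophil, bile duct and fat cell genes did. Of 11 measured macrophage markers, 4 rose and 0 fell, among them Gpnmb, a glycoprotein of lipid-laden macrophages, at 5.99, and Clec7a, the receptor dectin-1, at 3.61. At an unadjusted p under 0.05 there were 10, and the median was 1.71. The mean of the list lay between 5.55 and 7.40 in CCl4 livers and between 4.42 and 4.85 in oil livers. The number past the adjusted threshold became 8 without CCl4 replicate 5 and 1 without oil replicate 3. It was 2 when CCl4 replicate 1 or 4, or oil replicate 1, 2, 4 or 5, was dropped.

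Of 11 neutrophil markers 0 passed, 4 had an unadjusted p under 0.05 and the median was 0.47. The smallest p values belonged to Csf3r, the receptor for granulocyte colony-stimulating factor, at 0.54, and to Retnlg at 1.41, S100a8 at 1.21 and Cxcr2 at 0.47. S100a8 was at 0.72 without CCl4 replicate 2, which measured 4.60 where the other CCl4 livers measured 1.72 to 3.13. The list mean was 2.01 to 2.94 in CCl4 livers and 1.81 to 1.88 in oil livers, with CCl4 replicate 2 at 1.09 and CCl4 replicate 4 at 0.77 above the oil livers, the others at 0.16 to 0.26. The granule enzyme genes Mpo and Elane, named outside the rule, stood at 0.07 and -0.01. Both were dim, with Mpo at 1.66 to 1.91 and Elane at 2.27 to 2.69, where array medians were 2.54 to 2.66. Csf3r, at 1.39 to 2.66, and Cxcr2, at 1.51 to 2.95, were dim too. In oil livers S100a8 lay at 1.20 to 1.73 and Retnlg at 1.34 to 1.77. S100a9, also named outside the rule, was at 0.82 (limma adjusted p = 0.492), with no overlap between the groups. CCl4 replicate 2 measured 4.17 for S100a9, and the other CCl4 livers 1.74 to 1.99. Ly6g was not measured.

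Of 10 fibroblast and stellate cell markers, 6 rose and 0 fell, led by Lum, a collagen-binding proteoglycan, at 3.06 and by Vim (vimentin) at 2.60. At an unadjusted p under 0.05 there were 8, and the median was 1.89. Acta2, Des and Lrat, named outside the rule, were at 1.22, 0.45 and 0.03 with overlapping groups (limma adjusted p = 0.422, 0.447 and 0.99). The list mean was 6.58 to 7.81 in CCl4 livers and 4.89 to 5.69 in oil livers. The number past the adjusted threshold was 3 without CCl4 replicate 1 or without oil replicate 1, 2, 3 or 5. Of 4 bile duct markers and 5 fat cell markers 0 passed, with 0 and 2 at an unadjusted p under 0.05, and their list means lay between 2.32 and 2.89 and between 2.23 and 2.35 in CCl4 livers, against 2.27 to 2.56 and 2.16 to 2.26 in oil livers. The part of these cells in the levels of Lcn2, Saa3 and the other reactants was not tested.

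Hepatocyte markers were present at the top of the scale in both groups, with Alb (albumin, named outside the rule) at 12.98 to 13.12 in CCl4 livers and 12.97 to 13.20 in oil livers. Of 7 measured hepatocyte markers 0 passed, 1 had an unadjusted p under 0.05, and the median was -0.02. That 1 was Cyp2e1, which was lower, at -0.22 (limma adjusted p = 0.401). Likewise 0 of 10 genes listed as negative acute phase proteins passed the test or had an unadjusted p under 0.05 (median 0.00). The output of such proteins falls in the classical response, but the list also held Serping1, the gene for C1 inhibitor, which is not a negative reactant. Apom, which encodes apolipoprotein M, was at -0.31 (limma adjusted p = 0.50), and Fetub at 0.26, Ahsg at 0.09 and Serping1 at 0.12 had adjusted p from 0.537 to 0.753.

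Among 15 other positive acute phase proteins 0 passed and 5 had an unadjusted p under 0.05, with a median of 0.19 and 14 of 15 at a positive fold change. Cd14, the coreceptor for bacterial lipopolysaccharide, was 4.96, 6.82, 3.08, 5.67 and 4.11 in CCl4 livers, against 1.96, 2.37, 2.30, 2.79 and 1.79 in oil livers. Its groups did not overlap, the fold change was 2.68 ± 0.59 (SE) and the limma adjusted p was 0.0749, which became 0.0291 without CCl4 replicate 3. Cd14 passed in 2 of 18 alternatives. Il1rn, the interleukin-1 receptor antagonist, was at 2.26 (limma adjusted p = 0.193), Itih3, a hyaluronan-binding plasma protein, at 0.68 (0.151) and Lrg1, a leucine-rich plasma glycoprotein, at 0.75 (0.325).

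The inducing cytokines differed in brightness. Il6 was 1.23 to 1.35 in CCl4 livers and 1.06 to 1.32 in oil livers, below the lower quartile of every array. Il1a was brighter, at 4.01 to 6.01 in CCl4 livers and 3.26 to 4.21 in oil livers, and its fold change was 0.86 (limma adjusted p = 0.395), or 0.55 without CCl4 replicate 4. Il1b was at 0.38 (limma adjusted p = 0.754), or 0.09 without CCl4 replicate 2 and 0.23 without oil replicate 1. Of 13 genes for cytokines and their receptors 0 rose and 1 fell, against 5 at an unadjusted p under 0.05 (median 0.18). Lifr, which encodes the LIF receptor, was the gene that fell, at -0.93 (limma adjusted p = 0.0379), and with any 1 array other than CCl4 replicate 5 left out it did not pass. Osmr, the oncostatin M receptor, was 3.62, 5.47, 3.57, 5.37 and 4.46 in CCl4 livers, against 2.39, 2.66, 2.83, 3.41 and 2.67 in oil livers, with no overlap, a fold change of 1.71 ± 0.39 (SE) and a limma adjusted p of 0.0913. Il6st, the shared signalling chain gp130, was at 0.18, Il1r1 at 0.60 (0.29 without CCl4 replicate 4) and Il1rap, the interleukin-1 receptor accessory protein, at -0.49, none past the threshold. Tnf, named outside the rule, was at 0.03 (limma adjusted p = 0.978), with a sign that turned under median centring (-0.03). It was dim, at 1.30 to 2.08 in CCl4 livers and 1.29 to 1.96 in oil livers, below the median of every array.

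Of 12 signal transducers, transcription factors and feedback inhibitors 0 passed and 5 had an unadjusted p under 0.05 (median 0.20). Stat3, the transcription factor downstream of gp130, was 7.55, 7.94, 7.53, 7.62 and 7.37 in CCl4 livers, against 6.53, 7.14, 7.23, 7.26 and 7.09 in oil livers. The groups did not overlap, and the fold change was 0.55 ± 0.15 (SE) with a limma adjusted p of 0.155. Socs3, the feedback inhibitor of that pathway, was at 0.76, with CCl4 replicate 2 at 5.76 and the other CCl4 livers at 3.81 to 4.75, and at 0.45 without that liver. Cebpb, which encodes a C/EBP factor, was at 0.63 and Jak1, a kinase bound to gp130, at 0.23, with limma adjusted p of 0.353 and 0.383.

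Among 10 receptors and partners of the reactants, 1 rose and 0 fell, and 4 had an unadjusted p under 0.05 (median 0.46). Cd36, a scavenger receptor that also binds serum amyloid A, was 6.81, 7.39, 6.46, 7.46 and 6.14 in CCl4 livers, against 3.78, 3.79, 4.28, 5.09 and 3.93 in oil livers, a rise of 2.68 ± 0.32 (SE, limma adjusted p = 0.00702). Without CCl4 replicate 5 the count that rose was 3. Fcgr3 and Fcgr1, Fc receptors that bind C-reactive protein, were at 1.43 and 0.81 (limma adjusted p = 0.0696 and 0.108), and Tlr4 at 0.91 (0.239). Cd163, the macrophage receptor for haptoglobin bound to hemoglobin, was at -0.40, Lrp1, the receptor for hemopexin bound to heme, at 0.09 and Slc22a17, a receptor for lipocalin-2, at 0.07, with adjusted p of 0.819, 0.885 and 0.852, and the sign of Slc22a17 turned with quantile normalization (-0.02). Cd163 was 5.65 in CCl4 replicate 4 and 3.11 to 3.77 in the other CCl4 livers, against 4.03 to 4.64 in oil livers, so those 4 lay below every oil liver. Its fold change was -0.85 without CCl4 replicate 4 (limma adjusted p = 0.0832), -0.26 without CCl4 replicate 1 and -0.22 without CCl4 replicate 2.

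**Figure D4:**
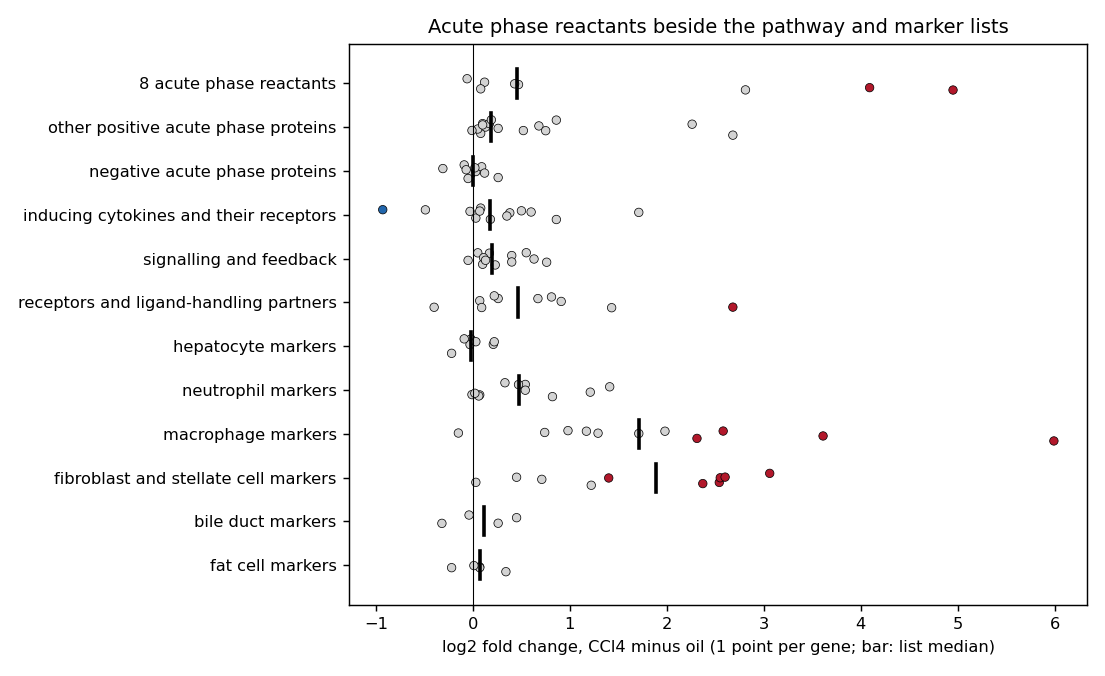
Log2 fold change of CCl4 over oil livers (horizontal axis), 1 point for each measured gene, for the 8 acute phase genes and the lists set beside them (5 livers a group), with a bar at the list median, red for genes that rose and blue for genes that fell at a limma adjusted p under 0.05. Lcn2 and Saa3 stand at 4.95 and 4.09, and the macrophage and fibroblast lists hold most of the other red points.

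For the 4 genes whose 10 values spanned more than 2, the genes most like them were sought among 14852 others. Likeness was the smallest root mean square difference between profiles over the 10 livers, each profile being the values minus the oil mean. For Lcn2 these were Ly6d, a lymphocyte antigen gene (0.54), Lgals3, galectin-3 (1.08), and Gpnmb (1.10). For Saa3 they were Ly6d (0.79), Olfml3 (0.90) and Ccdc80 (0.94), genes of secreted matrix proteins. For Orm2 they were the collagen genes Col1a1 (0.53), Col1a2 (0.60) and Col3a1 (0.67), and for Orm1 they were Arsb (0.26), 1110008P14Rik (0.27) and Bst2 (0.27). Ly6d was 7.68, 9.68, 7.09, 8.42 and 6.76 in CCl4 livers, against 3.42, 3.55, 3.41, 2.99 and 3.29 in oil livers, with CCl4 replicate 2 highest and CCl4 replicate 5 lowest as for Lcn2.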

How the data were processed

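Per the series description, total RNA from 10 livers was hybridised to Affymetrix Mouse Exon 1.0 ST arrays, whereas the study's methods name the Mouse Gene ST 1.0 array. The authors deposited 1 log2 value per probe set and array. The log2 scale was inferred from the largest value, 13.4. The methods name GenePix for image processing, and the steps of background correction, normalization and summarisation are not given in the sources used here, which leaves the distance of each value from background unknown. Array medians lay between 2.54 and 2.66, and precision is limited by how many arrays there are. The labels call the arrays biological replicates.

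No further scaling was applied. CCl4 and oil livers were compared across all 23332 probe sets by limma (version 3.58.1 in R 4.3.3), with Benjamini-Hochberg adjustment and a threshold of 0.05. Gene names came from the platform annotation (14996 probe sets with 1 symbol, 1019 with several, 7317 with none), and 0 symbols changed through RefSeq identifiers. Paralogues were compared in Python 3.11.15, and 2 of the 7 planned pairs could be run, since Saa1 and Saa2 share their probe sets, and 2 pairs with the brighter shared probe set were added. The members, lists and tests were chosen with earlier results of these data known. The text names all members, up to 4 genes of each list with the smallest p, up to 4 further receptors, inducers or inhibitors of members, and the 3 genes most like each member that spans more than 2, with exceptions marked. Motifs were searched on both strands. Alternatives were leaving out each array, median centring, quantile normalization, blocking on the replicate number, array quality weights, the brighter probe sets, the mean of a gene's probe sets, the methods' t-test and, chosen after seeing the data, a variance for each group.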

Additional observations from a re-analysis of the deposited data

Results flagged for a closer look

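Both probe sets shared by Saa1 and Saa2 had 1 CCl4 liver far from the other 4. On the brighter, CCl4 replicate 2 was at 10.99 and the other CCl4 livers at 6.36 to 7.59, so that its gap to the nearest took 0.736 of the range of the group. On the dimmer, it was at 10.01 and the others at 4.22 to 5.79, a share of 0.728. The critical value for 5 samples is 0.71. The 2 probe sets are annotated to the same genes and are not separate evidence, and of 20 groups examined chance alone would pass about 1 in 20.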

How the results depend on the processing

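Saa3, Hp, Hpx and Crp kept their direction and side of the threshold under all 18 alternatives, and Lcn2 under 17, the exception being the methods' t-test (4.95, adjusted p = 0.0543), which called 1 gene higher. Orm2 passed under 4, namely without CCl4 replicate 2 or 5, with array quality weights (2.93, adjusted p = 0.0434) and among the brighter probe sets (2.81, adjusted p = 0.0342), where fewer probe sets were tested. The fold changes with 1 array left out were 2.23 to 3.12 for Orm2, -0.12 to 0.45 for Orm1 and -0.17 to 0.11 for Saa4, and the Saa4 value was 0.04 with array quality weights. The difference between Saa3 and the brighter shared Saa1/Saa2 probe set ranged from 0.87 to 1.86 with 1 array left out, and the other 3 paralogue differences kept their call in 11 of 11 alternatives. Averaging the probe sets of a gene could not change a value of the 8 genes, each of which has 1.

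Over all probe sets, 147 were higher and 21 lower. With 1 array left out the counts were 30 to 259 higher and 5 to 40 lower. They were 30 and 6 with the replicate number as a block, 251 and 47 among the brighter probe sets, 12 and 2 with the methods' t-test after adjustment, and 545 and 155 at the methods' threshold. The lower count was 39 with quantile normalization and 36 with median centring. The cause was not tested. The replicate block changed no call among the 8 genes (Lcn2 adjusted p = 0.0356, Saa3 adjusted p = 0.0138). Same-numbered arrays correlated between -0.0427 and 0.162 in their deviations from the group means, and 2 of 5 CCl4 arrays matched best with their own number, so the numbers were not taken as pairs. No blocked fit was made for the paralogue differences. Of the list counts of higher genes 174 stayed within 1.5 times and 24 moved, and of the list medians 193 stayed and 5 moved. Most of the counts that stayed were 0 in both fits. The macrophage count moved in 10 of 18 alternatives and the fibroblast count in 7. Of the named genes outside the 8, those whose sign turned all lay near 0. Slc22a17 was at -0.02 and Alb at 0.01 with quantile normalization, Tnf at -0.03 with median centring and Elane at 0.0 with array quality weights. With 1 array left out the ranges were -0.07 to 0.12 for Tnf, -0.05 to 0.04 for Elane, -0.04 to 0.01 for Alb and -0.01 to 0.35 for 1110008P14Rik. Lifr lost its call in 12 alternatives, Trem2 in 10, and Cd68, Lgals3 and Col3a1 in 9 each.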
